A study of Drosophila melanogaster with 42 samples.

Results

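Candidate regulatory regions were compared directly between GFP+ cells that carried the CD2 surface tag of a twi driver and GFP+ cells of the same crosses that did not. The comparison used the read share of each region in 3 twi CD2+ GFP+ libraries and 3 twi CD2- GFP+ libraries, that is 6 of the 42 libraries of the study, chosen by their titles. Of 491 candidate regions of 900 to 1101 bp, 172 held enough reads in these 6 libraries to be tested. The 6 matching input libraries (CD2+ or CD2- cells sorted without regard to GFP) are given beside the results but do not enter the ratio.

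In this assay a pool of transgenic flies carries many candidate regions, each placed upstream of a GFP reporter. A cell turns green when the region it carries is active there, so sorting green cells and sequencing the inserted DNA gives each active region a larger share of the reads. A rat CD2 protein, displayed on the surface of cells in which a chosen driver is active, splits the same embryos into tagged and untagged cells. Twist, the product of twi, is a basic helix-loop-helix transcription factor that specifies the mesoderm of the fly embryo, from which the body wall muscles, the heart and the gut muscles form. As far as reads follow cell numbers, a region read more in CD2+ GFP+ than in CD2- GFP+ cells takes a larger part of the green cells inside the twi domain than outside it.

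All groups came from crosses of transgenic pool males to females with the CD2 transgene of the driver. Eggs were laid over 2 to 2.5 h at 25 °C, and the embryos then developed at 18 °C for 9 to 10 h before dissociation. The 2 groups of the direct comparison were twi-CD2+/GFP+ and twi-CD2-/GFP+ cells, and the inputs were twi-CD2+ and twi-CD2- cells. The measured molecule was genomic DNA amplified by nested PCR of the inserts, so no marker gene could be read in these libraries, and the CD2 and GFP gates could not be checked against cell type markers. Extracts were pooled by sample type and divided into 5 PCR templates, and the labels do not say whether the 3 replicates of a group came from separate collections of embryos. The p-values therefore measure only how these libraries vary, and part of that may be technical.

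The CD2+ GFP+ libraries held 18016556 to 23034278 reads from 100783 to 111875 cells, and the CD2- GFP+ libraries 18896285 to 21183668 reads from 63849 to 66845 cells. CD2- GFP+ replicates 2 and 3 are labelled with the same number of cells, 66845, and whether they were sorted separately is not stated. The CD2+ libraries thus came from more cells than the CD2- libraries in every case, and the part of cell number in the results was not tested. The inputs held 18369496 to 21534170 reads from 100000 to 200000 cells. Values are given as counts per 1000000 reads of the library (CPM), and 3 reads correspond to 0.130 to 0.167 CPM in the GFP+ libraries. PCR reads carry no molecular identifiers, so such limits cover counting error only. In a GFP+ library a larger share can come, among other sources, from more green cells with the region or from more flies with it in the pool. In the GFP+ libraries alone the 2 cannot be told apart, and the part of PCR amplification in a share was not tested. Between CD2+ and CD2- libraries the number of flies is shared only where the libraries came from the same embryos. The labels do not say which libraries did. One difference in the tables bears on the contrast: all CD2+ tables of twi, and no CD2- table of twi, list 3 regions on 2 lines each with the reads divided equally, and both lines were added here.

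The direct comparison, with libraries taken as unpaired, called 7 regions as differing in read share between twi CD2+ and CD2- GFP+ cells. These were 7 of 172 tested regions, or 4.07% (edgeR quasi-likelihood test, Benjamini-Hochberg adjusted p under 0.05). CBP2862, ChIPCRM2300, ChIPCRM2754, CG7759_33, CBP5211 and ChIPCRM2947+2948 were higher in CD2+ cells (6 regions, 3.49% of those tested), by 2.66-fold to 532-fold. ChIPCRM6322 was lower (1 region, 0.581%). At an unadjusted p under 0.05 there were 18 regions (10.5%). With DESeq2, 9 regions were higher and 5 lower, among them 5 of the 6 and the 1 called here. In edgeR on the scale of library totals no region passed with the replicate number as a block or with the spread estimated over the 4 twi groups. The block with TMM scaling, chosen after seeing the data, called 5 higher and 1 lower. Nor did any pass without CD2+ GFP+ replicate 2 or without CD2- GFP+ replicate 1.

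The 3 libraries of each group all lay on 1 side of the other group for 13 regions with higher CD2+ values (7.56% of 172) and for 10 regions with lower values (5.81%). An exact two-sided permutation test of 3 against 3 libraries gives each such separation p = 0.1, so separate groups are not by themselves a call. Over all 172 regions the median log2 difference, CD2+ minus CD2-, was -0.51 on the scale of library totals and 0.09 after TMM scaling. The change of a region's log2 difference under TMM had a median of 0.54. Differences smaller than that shift are therefore tied to the choice of scale, and larger ones can depend on it too. The log2 difference of CG7759_33 was 1.41 with library totals, 1.94 with TMM and 0.57 in DESeq2.

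**Figure D1:**
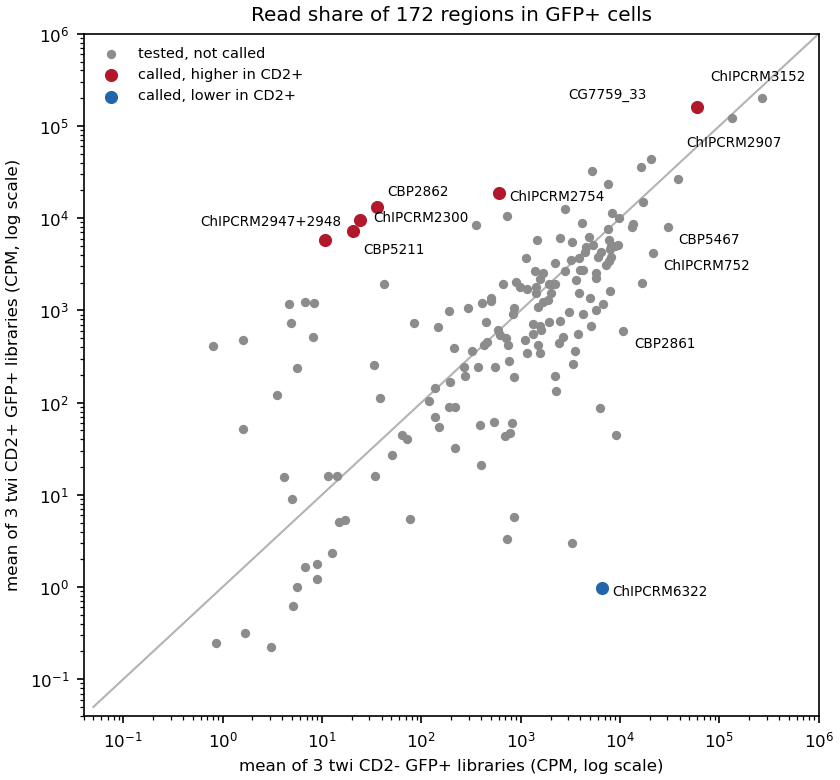
Mean read share of the 172 tested regions in CPM on log axes, with the 3 twi CD2- GFP+ libraries on the x axis and the 3 CD2+ GFP+ libraries on the y axis; each point is a region and the grey line marks equal share. The 6 regions called higher in CD2+ cells are red, ChIPCRM6322, called lower, is blue, and CG7759_33 is the called region with the highest share.

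The 3 regions with the highest mean share took 48.4 ± 7.70% of the reads in CD2+ GFP+ cells and 46.2 ± 1.78% in CD2- GFP+ cells (SD, n = 3 each). The first was ChIPCRM3152 at chr3R:21835656-21836646 (coordinates of build dm3 throughout). It held 238455, 195450.1 and 175074 CPM in CD2+ GFP+ replicates 1, 2 and 3 and 291565, 260674 and 251045 CPM in CD2- GFP+ replicates 1, 2 and 3. Every CD2+ library lay below every CD2- library, but the log2 difference of -0.40 ± 0.12 (SE) did not pass the test (edgeR adjusted p = 0.203), and with TMM scaling it was 0.15. Without CD2+ replicate 1 the adjusted p was 0.0495.

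ChIPCRM2907 (chr3R:17989695-17990673) held 122254, 137230.1 and 105807 CPM in CD2+ GFP+ cells and 132520.3, 149039 and 122912 CPM in CD2- GFP+ cells. The groups overlap, and the log2 difference was -0.15 ± 0.14 (SE) with an edgeR adjusted p of 0.983 and 0.42 after TMM scaling. The third is CG7759_33, which was called and is described with the regions of higher share.

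Among the other regions of high share, ChIPCRM2898 and ChIPCRM3043 had log2 differences of -0.52 ± 0.33 (SE) and -0.17 ± 0.60 (SE). Their groups overlap only for ChIPCRM3043: ChIPCRM2898 held 19873 to 31105 CPM in CD2+ and 32191 to 44737 CPM in CD2- GFP+ cells, and ChIPCRM3043 held 6754 to 21546 CPM and 13764 to 22778 CPM. Neither passed the test (edgeR adjusted p = 0.800 and 0.997), and after TMM scaling both differences were above 0, at 0.068 and 0.49.

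ChIPCRM2256 held 55207, 36658 and 38806 CPM in CD2+ GFP+ cells and 21905, 8284 and 30738 CPM in CD2- GFP+ cells. All 3 CD2+ libraries lay above the CD2- libraries, with a log2 difference of 1.10 ± 0.50 (SE, edgeR adjusted p = 0.526). ChIPCRM2497 and ChIPCRM2847 also had higher means in CD2+ cells. ChIPCRM2497 held 11207 to 47124 CPM against 678 to 11499 CPM, a log2 difference of 2.64 ± 1.04 (SE, edgeR adjusted p = 0.369), and ChIPCRM2847 held 12631 to 30415 CPM against 2165 to 15652 CPM, a log2 difference of 1.61 ± 0.82 (SE, edgeR adjusted p = 0.612). In both the groups overlap.

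**Figure D2:**
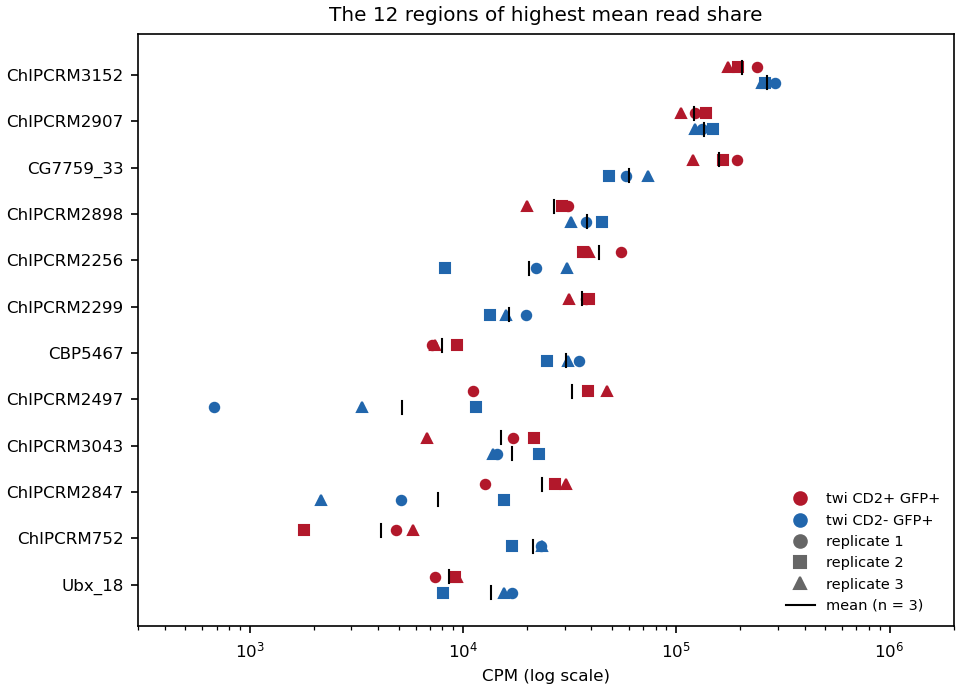
Read share in CPM (log axis) of the 12 regions with the highest mean over the 6 twi GFP+ libraries, ordered from the highest; red symbols are CD2+ GFP+ and blue symbols CD2- GFP+ libraries, with 1 symbol shape per replicate number and black bars for group means (n = 3). CG7759_33, ChIPCRM2256 and ChIPCRM2299 have all red symbols to the right of the blue ones, and ChIPCRM3152, ChIPCRM2898, CBP5467 and ChIPCRM752 have them to the left.

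CG7759_33 lies at chr2R:7287136-7288168, and its identifier names the gene Smyd4-3, a member of a family of proteins with SET and MYND domains. An identifier is the files' name for a region and does not show which gene the region acts on. The region held 192258, 165625 and 120064 CPM in CD2+ GFP+ cells and 57906, 48196 and 73338 CPM in CD2- GFP+ cells. Every tagged library lay above every untagged one. The ratio of means was 2.66 and the log2 difference 1.41 ± 0.22 (SE, edgeR adjusted p = 0.0123). Its inputs held 5689 to 11708 CPM in CD2+ and 5051 to 13512 CPM in CD2- cells, so the region was at a like share in both populations before the GFP sort and had a higher share in the green cells of both. In DESeq2, whose size factors scale the libraries differently, the difference was 0.57 on the log2 scale (adjusted p = 0.933) and was not called.

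The other 5 regions called higher were far less abundant in CD2- GFP+ cells. Together they took 4.88, 5.74 and 5.77% of the reads in the 3 CD2+ GFP+ libraries and 0.0691, 0.0791 and 0.0607% in the 3 CD2- GFP+ libraries. These regions were selected on the same libraries, so their sum describes them and tests nothing. In CBP2862, CBP5211 and ChIPCRM2947+2948 the CD2- values rose and fell with the CD2+ value of the same replicate number. In ChIPCRM2300 and ChIPCRM2754 they did not. What the low CD2- reads of these regions come from was not tested, and the large ratios of means depend on that low level.

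ChIPCRM2754 (chr3R:16375852-16376858) was the most abundant of the 5. It held 15857, 16672 and 23883 CPM in CD2+ GFP+ cells and 605, 679.8 and 529 CPM in CD2- GFP+ cells, a 31.1-fold ratio of means and a log2 difference of 4.96 ± 0.75 (SE, edgeR adjusted p = 0.0120). Its inputs held 1087, 1482 and 4515 CPM in CD2+ cells and 1117, 1776 and 4215 CPM in CD2- cells, close to each other replicate by replicate. Against those inputs the region was 7.96 times as abundant in CD2+ GFP+ cells and 0.255 times in CD2- GFP+ cells (ratios of means).

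CBP2862 (chr3L:320026-321098) held 9608, 21556 and 8718 CPM in CD2+ GFP+ cells and 29.1, 57.0 and 21.1 CPM in CD2- GFP+ cells. No CD2- library came near the lowest CD2+ library. The ratio of means was 372 and the log2 difference 8.54 ± 1.23 (SE, edgeR adjusted p = 0.0120). Its inputs varied from 12.4 to 6215 CPM, with 1163, 431 and 6215 CPM in CD2+ cells and 739, 875 and 12.4 CPM in CD2- cells.

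ChIPCRM2300 (chr3R:10415270-10416230) held 11444, 6474 and 10863 CPM in CD2+ GFP+ cells and 24.7, 26.9 and 21.6 CPM in CD2- GFP+ cells. Both groups were tight and did not overlap, with a 393-fold ratio of means and a log2 difference of 8.62 ± 1.29 (SE, edgeR adjusted p = 0.0120). The inputs were not tight: they held 1.95, 90.2 and 7.33 CPM in CD2+ cells and 1.49, 1319.6 and 1688 CPM in CD2- cells. In 2 of 3 CD2- inputs the region was thus above 1000 CPM, while no CD2- GFP+ library reached 50 CPM.

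CBP5211 (chr2R:12672264-12673253), which overlaps the listed region CBP5210, held 6822, 2902 and 11855 CPM in CD2+ GFP+ cells and 21.7, 8.54 and 31.4 CPM in CD2- GFP+ cells. The groups do not overlap, the ratio of means was 350.4, and the log2 difference was 8.45 ± 1.64 (SE, edgeR adjusted p = 0.0292). The inputs held 55.6, 2083 and 29.2 CPM in CD2+ cells and 1205, 1596 and 2106 CPM in CD2- cells, and 2 of 3 CD2+ inputs lay below every CD2- input. How the tables divide reads between CBP5211 and CBP5210 was not given in the sources used here, so the split between them is uncertain.

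ChIPCRM2947+2948 (chr3R:18852751-18853754) is 1 of the 3 regions listed on 2 lines in the CD2+ tables, and it overlaps the listed region ChIPCRM2946, so the division of reads between them is uncertain too. After both lines were added it held 5075, 9785 and 2363 CPM in CD2+ GFP+ cells and 9.96, 18.4 and 4.07 CPM in CD2- GFP+ cells, without overlap. The ratio of means was 532 and the log2 difference 9.05 ± 1.86 (SE, edgeR adjusted p = 0.0352). Taking only 1 of the 2 lines lowers the log2 difference to 8.06 and ends the call (edgeR adjusted p = 0.166). Its inputs held 2440.5, 3039 and 6.20 CPM in CD2+ cells and 3135, 1696 and 434 CPM in CD2- cells.

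ChIPCRM6322 (chr2L:18889662-18890587) was the region called lower in CD2+ cells. It held 0.288, 1.09 and 1.55 CPM in CD2+ GFP+ cells, from 6, 25 and 28 reads, and 1642, 9732 and 8529 CPM in CD2- GFP+ cells. The ratio of means was 6798-fold in favour of CD2- cells, with a log2 difference of -12.72 ± 2.11 (SE, edgeR adjusted p = 0.0128). Its inputs held 797, 3266 and 1.02 CPM in CD2+ cells and 348, 4143 and 5549.7 CPM in CD2- cells. The region was thus well read in 2 of 3 CD2+ inputs but nearly unread in all CD2+ GFP+ libraries.

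**Figure D3:**
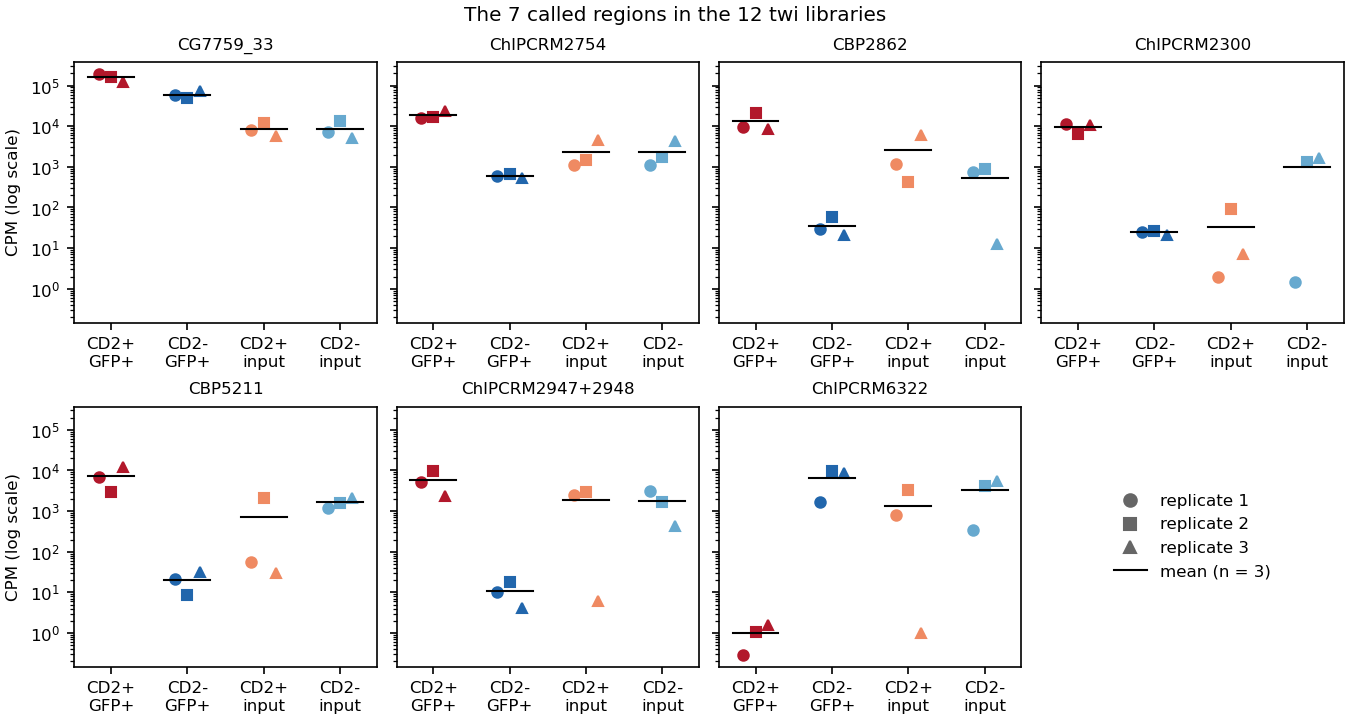
Read share in CPM (log axis) of the 7 called regions in the 12 twi libraries, 1 panel per region; symbols are single libraries, 1 shape per replicate number, and black bars are group means (n = 3). In each panel the CD2+ GFP+ symbols (red) and the CD2- GFP+ symbols (blue) do not overlap, while the input symbols of CD2+ and CD2- cells overlap in all 7 panels.

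The calls rest on few libraries. Without CD2+ GFP+ replicate 2 none of the 7 passed (edgeR adjusted p = 0.0783 for 6 of them and 0.368 for ChIPCRM2947+2948), nor without CD2- GFP+ replicate 1 (0.0521 for 5, 0.128 for CBP5211 and 0.154 for ChIPCRM2947+2948). CBP2862 and CG7759_33 passed without any 1 of the other 4 libraries. Without CD2+ replicate 1, ChIPCRM2754 had an adjusted p of 0.0524, ChIPCRM6322 0.0660, ChIPCRM2300 0.0725, CBP5211 0.122 and ChIPCRM2947+2948 0.135. Without CD2+ replicate 3 the same 5 ranged from 0.0972 to 0.317. CBP5211, ChIPCRM2947+2948 and ChIPCRM6322 were lost without CD2- replicate 2 (0.110, 0.110 and 0.0956), and ChIPCRM2947+2948 without CD2- replicate 3 (0.0522). With the spread estimated over all 4 twi groups, inputs included, the 7 had adjusted p-values of 0.0502 to 0.120 and none passed. With the replicate number as a block and library totals as the scale these were 0.0639 to 0.122, and again none passed. With the block and TMM scaling, chosen after seeing the data, 5 of those called higher and the 1 called lower passed. Under every one of these settings the 7 log2 differences kept their sign.

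Regions with separate groups that did not pass after adjustment were examined next. Of the regions with higher CD2+ values, ChIPCRM2299 (chr3R:10412527-10413427) held 37665, 39136 and 31529 CPM in CD2+ GFP+ cells and 19833, 13420.0 and 16001 CPM in CD2- GFP+ cells, a log2 difference of 1.14 ± 0.36 (SE, edgeR adjusted p = 0.214). ChIPCRM5399 held 8542, 11439 and 5455 CPM against 862, 180.1 and 14.8 CPM (log2 difference 4.59 ± 1.64 SE, edgeR adjusted p = 0.330). The CD2- libraries of ChIPCRM5399 differed from each other, from 14.8 to 862 CPM, whereas all its inputs were high, at 3859 to 18387 CPM.

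ChIPCRM6885 held 318 to 1737 CPM in CD2+ and 2.91 to 18.4 CPM in CD2- GFP+ cells, and CBP5083 held 362 to 2087 CPM and 0.755 to 17.6 CPM. Both were near absent in the CD2- GFP+ libraries, with log2 differences of 7.17 ± 2.78 (SE) and 7.50 ± 2.96 (SE) and an edgeR adjusted p of 0.369 for each. ChIPCRM6885 lies 1827 bp from rst_8, a region named for rst, which encodes an immunoglobulin superfamily protein that acts with the product of kirre in myoblast fusion; rst_8 was not read in all 6 libraries.

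On the lower side CBP5467 (chr2R:16487993-16489070) came closest to the threshold. It held 7146, 9390.5 and 7375 CPM in CD2+ GFP+ cells and 34984, 24891 and 31198 CPM in CD2- GFP+ cells. The log2 difference was -1.93 ± 0.44 (SE, edgeR adjusted p = 0.0573), and it passed when the 3 regions of highest share were left out of the library totals (adjusted p = 0.0417). With TMM scaling the difference was -1.38 (edgeR adjusted p = 0.486). In the CD2+ inputs it held 9369, 6541 and 506 CPM and in the CD2- inputs 9782, 6841 and 3854 CPM, so that the CD2- green cells exceeded every input.

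ChIPCRM752 (chr2R:10315985-10316956) held 4839, 1794 and 5819.6 CPM in CD2+ GFP+ cells and 23243, 17035 and 23607 CPM in CD2- GFP+ cells (log2 difference -2.36 ± 0.68 SE, edgeR adjusted p = 0.169). Its 6 inputs held 22096 to 38627 CPM, so the CD2+ green cells lay below all inputs of both populations and the CD2- green cells in a range that overlapped their own inputs. CG15319_down_3, named for nej, the fly homologue of the histone acetyltransferase CBP, held 129.6, 0.304 and 2.55 CPM in CD2+ GFP+ cells and 1249, 1805 and 24308 CPM in CD2- GFP+ cells (log2 difference -7.69 ± 2.76 SE, edgeR adjusted p = 0.330). The difference was -12.64 without CD2+ replicate 1 and -5.11 without CD2- replicate 3 (edgeR adjusted p = 0.0951 and 0.701). It overlaps CG15319_down_2 and CG15319_down_4, and its reads may be divided among them.

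Neighbouring candidate regions did not all differ in the same way. CBP2862 and CBP2861 (chr3L:317954-319048) are 977 bp apart. CBP2861 held 1728, 25.6 and 34.7 CPM in CD2+ GFP+ cells and 12682, 11209.7 and 8598 CPM in CD2- GFP+ cells, a log2 difference of -4.18 ± 1.8 (SE, edgeR adjusted p = 0.460). Without CD2+ replicate 1 the difference was -8.49 (edgeR adjusted p = 0.0522). All 3 CD2- libraries read CBP2861 above CBP2862 and all 3 CD2+ libraries read CBP2862 above CBP2861. Whether the opposite directions differ from each other beyond these values was not tested.

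ChIPCRM2299 and ChIPCRM2300, 1842 bp apart, both had their CD2+ libraries above their CD2- libraries, by 1.14 and 8.62 on the log2 scale. The third region of that stretch, ChIPCRM2298, lies 793 bp from ChIPCRM2299 and was read at over 1000 CPM in 3 of the 12 twi libraries, all of them replicate 2. It held 0.144, 0.738 and 16.2 CPM in CD2+ GFP+ cells and 1.42, 2543 and 8.10 CPM in CD2- GFP+ cells, a log2 difference of -7.22 ± 4.07 (SE) that rests on CD2- replicate 2 and was 0.26 without it. Its inputs held 7.08, 5269 and 0.701 CPM in CD2+ cells and 6.39, 2761 and 5.06 CPM in CD2- cells.

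DHS_FC_15, 757 bp from CBP5467, held 5493, 11074 and 6425 CPM in CD2+ GFP+ cells and 12191, 10171 and 293 CPM in CD2- GFP+ cells. Its groups overlap and its log2 difference was 0.02 ± 1.21 (SE), next to -1.93 for CBP5467. ChIPCRM3147, 9962 bp from ChIPCRM3152, held 1631, 4284 and 1.05 CPM in CD2+ and 33365, 13914 and 2722 CPM in CD2- GFP+ cells (log2 difference -3.08 ± 1.99 SE, edgeR adjusted p = 0.800). Its 6 inputs held only 0 to 1.89 CPM, so ChIPCRM3147 was read almost only after the GFP sort.

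**Figure D4:**
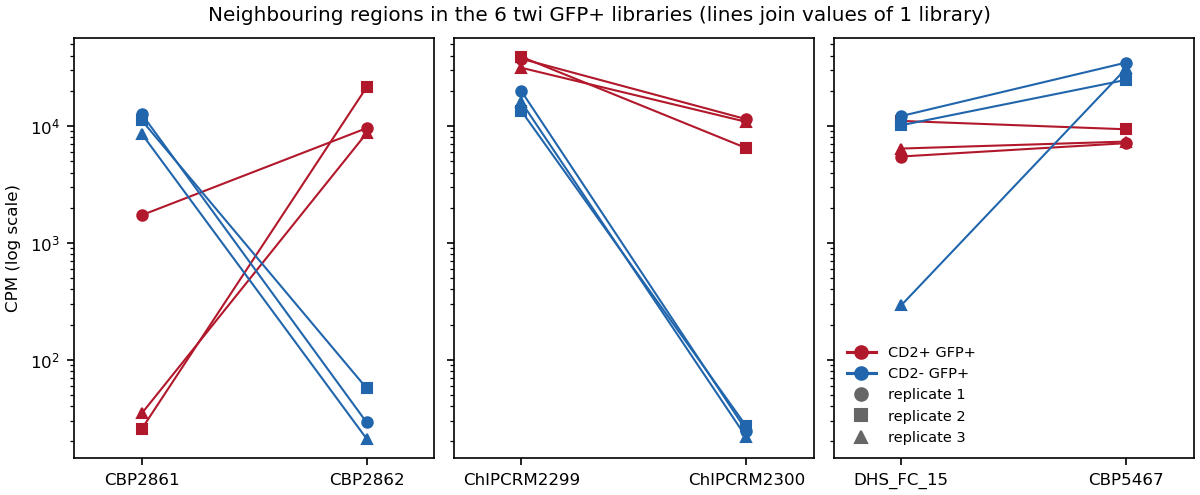
Read share in CPM (log axis) of 3 pairs of neighbouring regions in the 6 twi GFP+ libraries; each line joins the values of both regions in 1 library, red for CD2+ and blue for CD2- cells. The lines cross for CBP2861 and CBP2862, fall in all 6 libraries from ChIPCRM2299 to ChIPCRM2300, and separate the groups at CBP5467 but not at DHS_FC_15.

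Other neighbours of the named regions were not called. ChIPCRM2945, 1930 bp from ChIPCRM2947+2948, held 902 to 2805 CPM in CD2+ and 2.55 to 2954 CPM in CD2- GFP+ cells, and was at or below 4.87 CPM in CD2- replicates 1 and 3 (log2 difference 0.86 ± 2.53 SE). Without CD2- replicate 2 the difference was 8.91 (edgeR adjusted p = 0.517). Around ChIPCRM5399, the regions ChIPCRM5397, ChIPCRM5405 and ChIPCRM5406 had log2 differences of 0.11 ± 1.72 (SE), 1.69 ± 2.37 (SE) and -1.70 ± 2.77 (SE), each with overlapping groups, while ChIPCRM5399 itself had separate ones. ChIPCRM2845, 5334 bp from ChIPCRM2847, had a log2 difference of -1.17 ± 1.16 (SE) against 1.61 for ChIPCRM2847.

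The inputs give the state before the GFP sort, and the same contrast was fitted in them. Between CD2+ and CD2- inputs, taken as unpaired, 0 of 204 regions (0%) passed the edgeR test after adjustment. Of these, 4 (1.96%) had an unadjusted p under 0.05, and DESeq2 called 5. The replicate numbers pair the inputs, and with the number as a block 14 of the 204 had an unadjusted edgeR p under 0.05. The block gave 24 of 172 in the GFP+ cells, and 0 passed after adjustment in either. Groups of inputs were separate for 3 regions with higher CD2+ values (1.47%) and 6 with lower (2.94%). Of the 7 regions called in the GFP+ cells, the log2 difference between inputs in the unpaired fit was -0.00 ± 0.50 (SE) for CG7759_33, -0.00 ± 1.05 (SE) for ChIPCRM2754 and 2.26 ± 1.72 (SE) for CBP2862. It was below 0 for ChIPCRM2300 (-4.92 ± 2.58 SE), CBP5211 (-1.18 ± 1.73 SE) and ChIPCRM6322 (-1.30 ± 1.96 SE), and 0.06 ± 1.73 (SE) for ChIPCRM2947+2948.

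A fit over all 12 libraries compared the change from input to GFP+ cells between both populations. It called 0 of 211 regions (0%) after adjustment, 21 (9.95%) had an unadjusted p under 0.05, and DESeq2 called 11. For the 7 regions the difference of the 2 changes, CD2+ minus CD2-, was 1.41 ± 0.49 (SE) on the log2 scale for CG7759_33 (edgeR adjusted p = 0.255) and 4.96 ± 1.42 (SE) for ChIPCRM2754 (0.186). It was 6.28 ± 2.24 (SE) for CBP2862 (0.279), 13.54 ± 3.39 (SE) for ChIPCRM2300 (0.165) and 9.63 ± 2.83 (SE) for CBP5211 (0.186). For ChIPCRM2947+2948 it was 8.99 ± 2.91 (SE) (0.214) and for ChIPCRM6322 -11.42 ± 3.25 (SE) (0.186). This fit shares the 6 GFP+ libraries with the direct comparison, and none of the 7 differences passed once the inputs were part of the ratio.

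Replicates of a group often disagreed on a region by orders of magnitude. Of 111 regions with at least 1000 CPM in a CD2+ GFP+ library, 49 (44.1%) were at 50 CPM or less in another library of that group. In CD2- GFP+ cells these were 79 of 121 (65.3%), and in the inputs 42 of 149 (28.2%) for CD2+ and 22 of 146 (15.1%) for CD2- cells. The spread between GFP+ replicates, given by edgeR as a biological coefficient of variation, was 186%, and that between inputs 127%.

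Regions at 1000 CPM or more in all 3 libraries numbered 41 in CD2+ and 32 in CD2- GFP+ cells, of which 21 were shared. These 21 are 51.2% of the CD2+ set and 65.6% of the CD2- set. In 6 regions all CD2+ GFP+ libraries were at this level and every CD2- GFP+ library below it: CBP2862, CBP5211, ChIPCRM2300, ChIPCRM2754, ChIPCRM2947+2948 and ChIPCRM5399. The reverse held in 3 regions, ChIPCRM6322, CG15319_down_3 and CG11202_down_1, the last named for org-1, which encodes a T-box transcription factor of muscle and visceral mesoderm.

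Likeness between libraries within a gate overlapped that across the gates. Pearson's r of log2(CPM + 1) over the 172 regions was 0.49 to 0.58 among CD2+ GFP+ libraries and 0.37 to 0.48 among CD2- GFP+ libraries. Between CD2+ and CD2- GFP+ libraries it was 0.48 to 0.74 for the same replicate number and 0.33 to 0.50 for different numbers. These are descriptions across regions, which share library and amplification and are not independent replicates.

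Reads were concentrated in few regions in both GFP+ groups, more so than in the inputs. The 10 most abundant regions of each library took 69.1 ± 6.14% of reads in CD2+ and 64.3 ± 2.90% in CD2- GFP+ cells (SD, n = 3; exact two-sided permutation p = 0.3), against 31.2 ± 0.321% and 31.5 ± 0.995% in the inputs. The number of regions with at least 100 reads was 130.0 ± 19.7 and 137 ± 12.5 in the GFP+ groups (SD, n = 3; exact permutation p = 0.7). With 3 libraries against 3 the smallest p such a test can give is 0.1.

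The identifiers fall into 5 classes by their prefix: 288 ChIPCRM, 107 gene-named, 49 DHS_FC, 38 CBP and 9 DHS_FCM regions. The labels do not explain the prefixes. Gene-named regions took 19.7 ± 2.61% of the reads in CD2+ and 12.8 ± 2.46% in CD2- GFP+ cells (SD, n = 3), and the groups did not overlap (exact permutation p = 0.1). Without CG7759_33 the order was reversed, at 3.81 ± 1.33% and 6.80 ± 1.20%, again without overlap (SD, n = 3; exact permutation p = 0.1). ChIPCRM regions took 72.9 ± 1.31% and 78.2 ± 2.58% (SD, n = 3; exact permutation p = 0.1), and CBP regions 4.49 ± 1.04% and 5.50 ± 0.590% (SD, n = 3; exact permutation p = 0.3).

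Among the called regions, 3 of 111 tested ChIPCRM regions were higher and 1 was lower, 2 of 14 tested CBP regions were higher, and 1 of 30 tested gene-named regions was higher. The share called over all 172 regions was 4.07%, and differences between classes were not tested. The regions called higher lay on 3R (3), 2R (2) and 3L (1) and the one called lower on 2L. The median GC content of the regions called higher was 41.9%, next to 43.2% over all tested regions, and GC content weighted by reads was 44.8 ± 0.502% in CD2+ and 45.6 ± 0.360% in CD2- GFP+ libraries (SD, n = 3; exact permutation p = 0.1). The inputs showed the same order, at 43.6 ± 0.199% and 44.1 ± 0.188% (SD, n = 3; exact permutation p = 0.1). The part of base composition in the calls was not tested.

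Regions named for genes of muscle and heart were then followed as groups. Of 49 genes of somatic muscle and founder cells, 8 had at least 1 of 38 regions, and 12 of these regions were tested. Of the 12, 1 was higher (CG7759_33) and 0 were lower, next to 3.49% and 0.581% over all regions; their median log2 difference was -2.04 against -0.51 for all 172. Few of these regions were tested, and the call is that of 1 region. The list, which includes Smyd4-3, was made with earlier results of these data known, so the count describes these regions and tests nothing. nau_a_4, named for nau, the fly member of the MyoD family of myogenic factors, held 1123, 1305 and 1647 CPM in CD2+ GFP+ cells and 1513, 4074 and 9482 CPM in CD2- GFP+ cells (log2 difference -1.89 ± 1.28 SE, edgeR adjusted p = 0.861). slou_Up_30, named for slou, a homeodomain protein that sets the identity of single muscles, held 1142, 1.26 and 906 CPM and 4875, 1.81 and 10536 CPM (log2 difference -2.91 ± 2.63 SE, edgeR adjusted p = 0.983). Both groups of slou_Up_30 contain a library under 2 CPM, in each case replicate 2.

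A list of 19 genes for the heart and the Hox group also held nej, the CBP homologue, so its counts are not those of heart and Hox genes alone. Of the 19 genes, 6 had at least 1 of 23 regions. Of 9 tested regions 0 were higher and 0 lower by edgeR (median log2 difference -0.51). Ubx_18, named for the Hox gene Ubx, held 7398, 9202 and 9331 CPM in CD2+ GFP+ cells and 17019.7, 8055 and 15598 CPM in CD2- GFP+ cells (log2 difference -0.65 ± 0.62 SE, edgeR adjusted p = 0.983). Its inputs were higher than all 6 GFP+ libraries, at 33686 to 41822 CPM. CG15319_down_11, a further nej region, held 1361 to 10625 CPM and 102 to 4535 CPM, and CG15319_down_9 1841 to 4132 CPM and 1693 to 3602 CPM. Both were read in all 6 libraries with overlapping groups, unlike CG15319_down_3. No region carried the name of a gene of the lists for visceral mesoderm or for ectoderm and nervous system. No region was named for twi or kirre, and Mef2_29, named for Mef2, had 0 reads in all 12 twi libraries, which allows up to 0.130 to 0.167 CPM in the GFP+ libraries.

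The mef2 and duf drivers gave a further view of the called regions in libraries that the twi contrast did not use. Mef2 is a transcription factor of muscle differentiation, and duf is another name of kirre, which marks muscle founder cells. Each driver has 1 pooled CD2+ GFP+ library (16163 cells for mef2 and 20015 for duf), set beside 3 mef2 and 6 duf CD2- GFP+ libraries, so no test was run. Of the 172 regions, the pooled mef2 library lay above every CD2- library in 70 (40.7%) and below in 36 (20.9%), and the pooled duf library above in 58 (33.7%) and below in 15 (8.72%). These shares are the background for the called regions' counts. The 172 include regions with no read in the pooled duf library, such as ChIPCRM3152 and ChIPCRM2845, and these counted on neither side for duf.

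Of the 7 called regions, 3 lay on the same side for mef2, 1 on the opposite side and 3 within the CD2- range, and for duf these were 4, 1 and 2. The opposite region for mef2 was CBP5211, at 39.2 CPM against 782 to 7343 CPM. ChIPCRM6322 was low in the CD2+ GFP+ cells of all drivers: it held 6.29 CPM in the mef2 library against 1478 to 4336 CPM in its CD2- libraries, and 0.912 CPM in the duf library against 298 to 6548 CPM. ChIPCRM2947+2948 was above its CD2- libraries in both, at 1593 CPM against 144 to 764 CPM for mef2 and 6650.1 CPM against 1569 to 4711 CPM for duf. CG7759_33 was not higher in either: it held 120116 CPM in the mef2 library, within 115544 to 128357 CPM, and 14696 CPM in the duf library, below 34092 to 75132 CPM.

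CBP2862 and its neighbour CBP2861 differed among the drivers as well. CBP2862 held 17.9 CPM in the mef2 CD2+ GFP+ library against 2.30 to 10.5 CPM, and 9929.8 CPM in the duf one, within 2888 to 18774 CPM. CBP2861 was below its CD2- libraries in both, at 165 CPM against 33907 to 44856 CPM for mef2 and 11309 CPM against 51195 to 68444 CPM for duf. The lower CD2+ share of CBP2861 thus appeared with all 3 drivers, although it did not pass the test in twi. ChIPCRM3152, the most abundant region in twi GFP+ cells, held 0 reads in the pooled duf library, which allows up to 0.137 CPM. It held at most 0.0326 CPM in the 6 duf CD2- GFP+ libraries, so it was unread on both sides of that gate. The duf inputs were not examined here, so whether the duf flies carried the region was not tested.

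**Figure D5:**
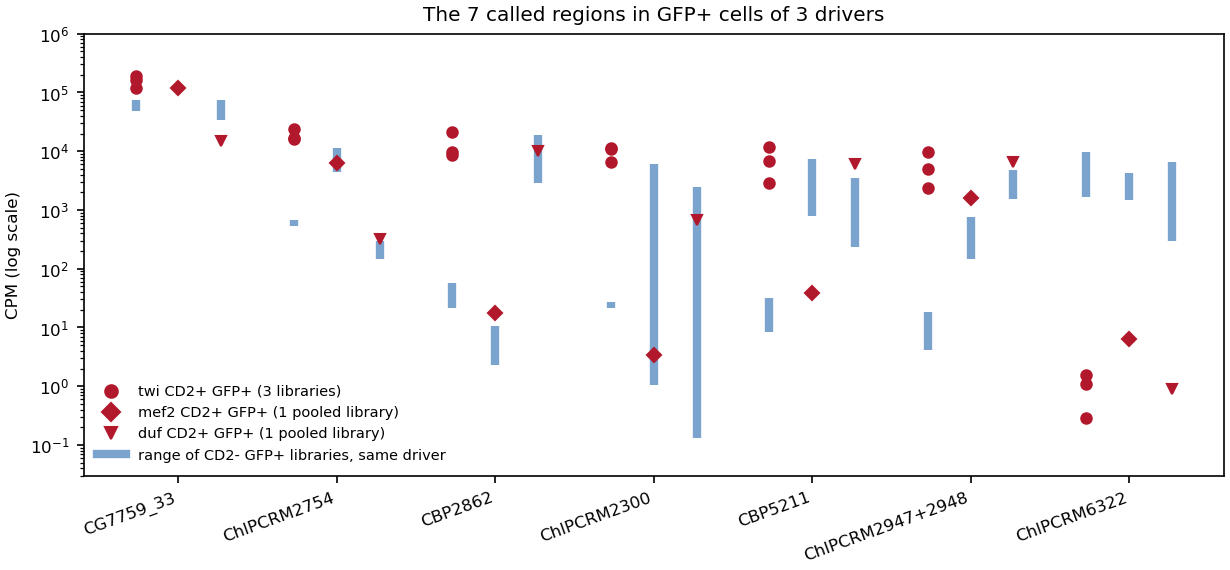
Read share in CPM (log axis) of the 7 called regions in GFP+ cells of the twi, mef2 and duf drivers, from left to right within each region; red symbols are CD2+ GFP+ libraries (3 for twi, 1 pooled library each for mef2 and duf) and blue bars span the lowest to the highest CD2- GFP+ library (3 for twi, 3 for mef2, 6 for duf). ChIPCRM6322 has its red symbols below the blue bars with all 3 drivers, and ChIPCRM2947+2948 has them above.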

How the data were processed

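The 6 twi GFP+ libraries, 3 CD2+ and 3 CD2-, were grouped by their titles. Per the submitters' processing notes, CASAVA 1.8 and build dm3 were used; of the mapper, the sources used here give nothing. The authors deposited 1 table per library with an expected count of reads per region (whole but for reads divided between overlapping or repeated lines), and, per the file headers, read counts at region starts and ends and the GC content as a fraction. Regions on 2 lines under 1 name (33 pairs in 11 libraries, all of equal reads) were added, and counts were rounded to whole reads.

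Library totals scaled the counts, regions were filtered with filterByExpr, and CD2+ was tested against CD2- with the quasi-likelihood test of edgeR 4.0.16 (R 4.3.3), Benjamini-Hochberg adjusted over all tested regions; DESeq2 1.42.0 was an alternative. The scripts were tested on simulated data. Single values per library were compared with exact permutation tests. Gene names came from the identifiers through a RefSeq table of Release 6 (106 of 107 gene-named regions matched), used for names alone. Sequences of the regions were not used here.

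Named were all called regions, regions with separate groups and an unadjusted p under 0.05 (up to 12 per direction), the 12 most abundant, up to 3 per gene list, regions named for driver genes, and neighbours within 10000 bp read in all 6 libraries. The regions and lists were chosen with earlier results of these data known. Same-numbered inputs deviated together from their group means (correlations of 0.45 to 0.71), so the numbers pair the inputs, as judged from the data. No 2 libraries of a group agreed within counting noise.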

Additional observations from a re-analysis of the deposited data

Results flagged for a closer look

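In the 6 duf CD2- GFP+ libraries, the group used here that is large enough for such a test, 23 regions were examined for a library far from the others. Of these, 2 had one, and chance flags about 1 in 20 such groups. ChIPCRM2497 held 2834 CPM in replicate 2 and 183 to 1130.4 CPM in the other 5 libraries. ChIPCRM3152, the most abundant region of the twi GFP+ cells, held 0.0326 CPM in replicate 4, which is 1 read, and 0 in the others; 1 read is below the limit of 3 reads that a count of 0 allows.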

How the results depend on the processing

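The 7 called regions kept their direction under every alternative in which they were tested (up to 17 each), but the number of calls did not hold. TMM scaling called 6 regions higher and 1 lower, the same ones. DESeq2 called 9 and 5. Leaving out 1 library gave 0 to 5 higher and 0 to 1 lower; the 1 lower without CD2+ replicate 1 was ChIPCRM3152, not ChIPCRM6322. Estimating the spread over the 4 twi groups gave 0 and 0 (29 regions at an unadjusted p under 0.05). Library totals without the 3 most abundant regions gave 5 higher and 2 lower, since CG7759_33 was then not among the tested regions and CBP5467 passed. Same-numbered CD2+ and CD2- GFP+ libraries deviated together with correlations of 0.07 to 0.49, against -0.38 to 0.11 for other numbers. All the same-numbered values were positive, but not all were above the limit of 0.1 set for pairing, so the main fit did not pair them. GFP+ libraries and inputs of the same number correlated at 0.12 to 0.32 for CD2+ and 0.24 to 0.32 for CD2- cells. For other numbers these were -0.26 to -0.04 and -0.18 to -0.09. The replicate number thus linked GFP+ libraries to inputs, and the inputs to each other, so the GFP+ libraries may be paired too. The unpaired main fit ignores this, and the fit with the block allows for it. With the replicate number as a block, edgeR gave 0 higher and 0 lower (24 at an unadjusted p under 0.05), the block with TMM 5 and 1, and the block with DESeq2 24 and 20; the last 2, and 1 of the 2 lines of regions listed on 2 lines (5 and 1), were chosen after seeing the data. With the block, the fits of the inputs and of the enrichment difference also called 0. DESeq2 called 5 regions in the inputs and 11 in the enrichment difference, where edgeR called 0, also in each fit without 1 library. The causes were not tested. Some uncalled differences changed sign. With TMM scaling the log2 difference was 0.15 for ChIPCRM3152, 0.42 for ChIPCRM2907, 0.068 for ChIPCRM2898, 0.49 for ChIPCRM3043 and 0.41 for CG15319_down_9. With the block and TMM it was 0.10 for ChIPCRM3152, 0.36 for ChIPCRM2907, 0.25 for ChIPCRM3043 and 0.42 for CG15319_down_9. Leaving out 1 library turned the sign for ChIPCRM3043 (-0.51 to 0.19), ChIPCRM2298 (-10.89 to 0.26), ChIPCRM5397 (-0.47 to 0.73), DHS_FC_15 (-0.54 to 0.55) and CG15319_down_9 (-0.51 to 0.16). At this depth 3 reads are 0.130 to 0.167 CPM in the GFP+ libraries; the part of depth in the calls was not tested.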
